A study of Rattus norvegicus with 6 samples.

Results

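The 10 genes that mark astrocytes (Gfap, Aqp4, Aldoc, Kcnj10, Slc1a2, Slc1a3, Glul, S100b, Aldh1l1 and Gja1) were looked up by symbol in a table of transcript levels, and 8 of them had values among its 17066 genes. Glul, the glutamine synthetase, and Aldh1l1, a folate enzyme, were not analysed here. The libraries came from primary hippocampal neurons of Sprague-Dawley rat embryos at embryonic day 18, infected at day 5 or 6 in vitro with lentivirus and harvested at day 14. The control virus (EGFP) carried EGFP alone and no shRNA is named for it, the second carried wild-type Cyclin Y with EGFP (CCNY-WT, overexpression), and the third carried an shRNA against Cyclin Y with EGFP (CCNY-shRNA, knockdown). Each of the 3 groups had 2 libraries, called replicates 1 and 2, so the whole study has 6. The labels do not state that replicates came from separate cultures, so p-values measure only the spread between these libraries. The virus was built in the vector FUGW, whose promoter is a ubiquitin promoter and is not limited to neurons, and the study describes the culture as rich in neurons with glia held down.

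Astrocytes clear glutamate and potassium released by neurons, return glutamine, and are joined into a network by gap junctions. Their markers fall into glutamate transporters (Slc1a2, Slc1a3), membrane channels for potassium, water and gap junctions (Kcnj10, Aqp4, Gja1), and proteins of the cell interior (the intermediate filament Gfap, the calcium-binding protein S100b and the glycolytic enzyme Aldoc). Most of these are not exclusive to astrocytes, since radial glia carry Slc1a3, oligodendrocyte lineage cells carry Kcnj10 and S100b, and neurons can carry some Slc1a2 and Aldoc. In RNA from a whole culture, fewer astrocytes and less RNA per astrocyte cannot be told apart.

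Levels are given as FPKM, which counts sequenced fragments relative to transcript length and to the fragments mapped in the library and so allows comparison between genes of different length. The table holds no read counts, so depth is unknown, and the smallest steps of weakly expressed genes put the depth of the other libraries at 0.818 to 1.33 times that of EGFP replicate 1, with CCNY-shRNA replicate 1 the shallowest. Between 9955 and 10002 genes per library reached an FPKM of 1. Ccny, the targeted gene, had an FPKM of 43.1 and 42.3 with EGFP, 108 and 109 with CCNY-WT, and 5.98 and 6.19 with CCNY-shRNA, in the order of the labels. For tests, FPKM below 1 was set to 1, log2 was taken, and limma was fitted to the 6 libraries together, keeping the 10188 genes that reached 1 in no fewer than 2 of them. All 8 measured markers passed this filter in every library.

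In the EGFP control the 8 markers spanned a 24.4-fold range of FPKM. Aldoc was the highest, with a mean of 175 ± 17.8 (SD, n = 2), followed by Gfap at 123 ± 4.31, Slc1a2 at 83.3 ± 0.580, Slc1a3 at 82.4 ± 2.28 and S100b at 58.1 ± 1.99. Aqp4 at 16.9 ± 0.137, Gja1 at 15.9 ± 2.05 and Kcnj10 at 7.18 ± 1.81 formed the lower end. Slc1a2 and Slc1a3 did not differ beyond their spread, with Slc1a2 higher in 3 of 6 libraries, and neither did Aqp4 and Gja1. Every other pair of neighbours kept its order in 6 of 6 libraries. Over all 17066 genes, mean FPKM over the 6 libraries placed Aldoc at the 96.3rd percentile, Gfap at the 94.6th and Kcnj10 at the 56.8th. In the same culture the neuronal markers Syp, a synaptic vesicle protein, and Slc17a7, the vesicular glutamate transporter, had FPKM values of 1537 to 1756 and 877 to 944.

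**Figure D1:**
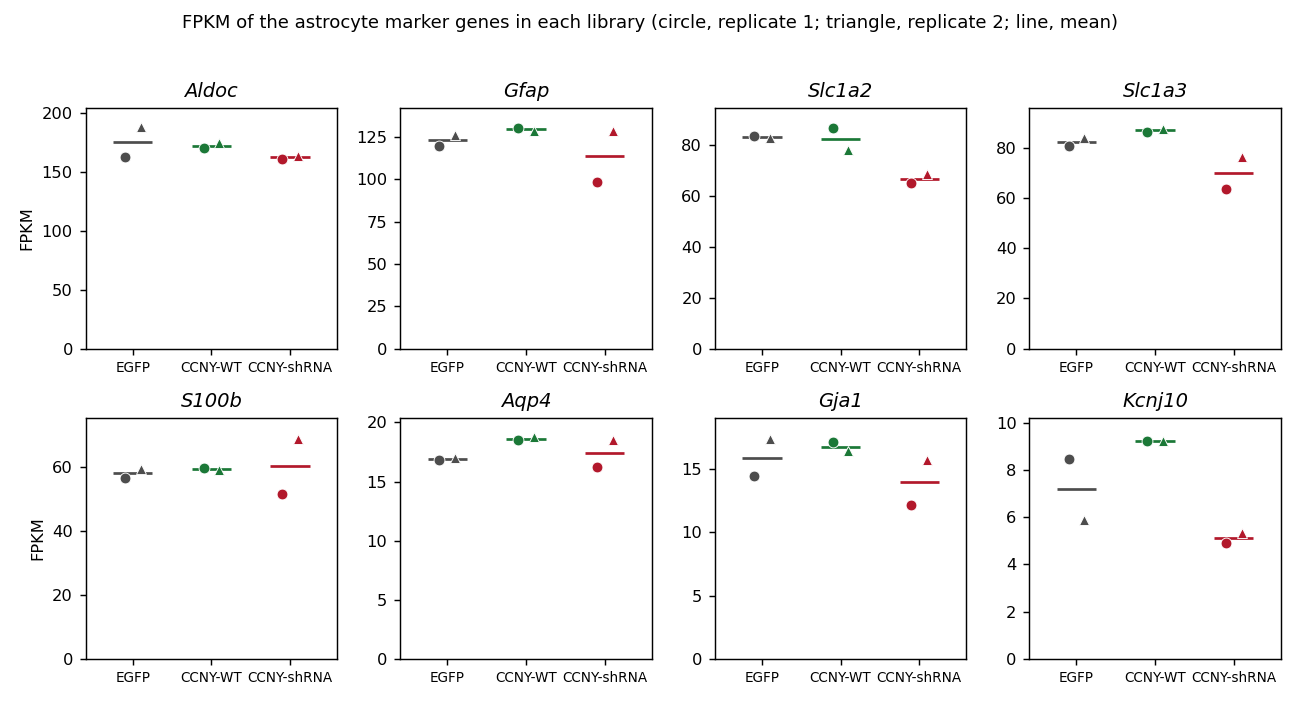
FPKM of each measured astrocyte marker (vertical axis, from 0) in EGFP, CCNY-WT and CCNY-shRNA, with circles for replicate 1, triangles for replicate 2 and lines for the mean of 2 libraries. In each panel the CCNY-shRNA replicate 1 library is the lowest of the 6.

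With limma and Benjamini-Hochberg adjustment over all 10188 genes, 0 of the 8 markers passed an adjusted p of 0.05 in any of the 3 comparisons. The share of all tested genes past this threshold was 0.00982% for CCNY-WT against EGFP, 0.746% for CCNY-shRNA against EGFP and 0.216% for CCNY-shRNA against CCNY-WT. At an unadjusted p under 0.05 the counts were 0 (6.83% of all tested genes for CCNY-WT against EGFP), 3 and 3 of 8, and in both CCNY-shRNA comparisons the 3 were Slc1a2, Slc1a3 and Kcnj10, all lower in CCNY-shRNA. Among all tested genes, 9.36% were lower at that unadjusted threshold in CCNY-shRNA against EGFP and 7.12% in CCNY-shRNA against CCNY-WT. The 2 comparisons that use EGFP share its libraries, and the 2 that use CCNY-shRNA share those, so they are not independent of each other.

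**Figure D2:**
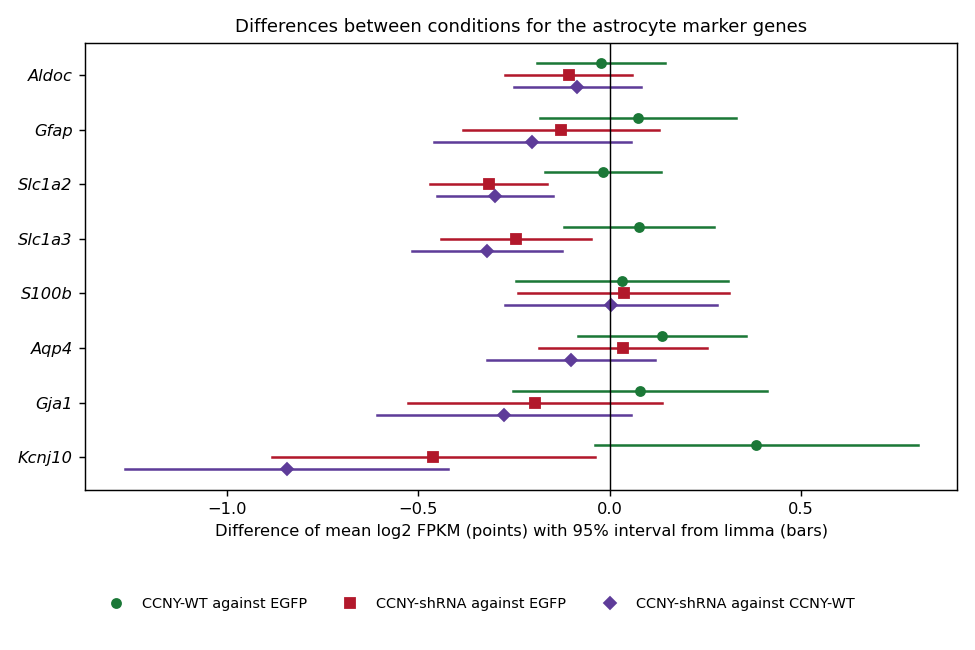
Differences of mean log2 FPKM (horizontal axis) for the 8 measured markers, with circles for CCNY-WT against EGFP, squares for CCNY-shRNA against EGFP, diamonds for CCNY-shRNA against CCNY-WT and bars for limma's unadjusted 95% interval. The bars of both CCNY-shRNA comparisons lie below 0 for Slc1a2, Slc1a3 and Kcnj10, and all other bars cross 0.

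Slc1a2, the main glutamate transporter of forebrain astrocytes, showed the smallest p of the markers against EGFP. Its FPKM was 83.7 and 82.9 with EGFP, 86.7 and 78.1 with CCNY-WT, and 65.2 and 68.6 with CCNY-shRNA. Both CCNY-shRNA libraries lay below the other 4 libraries, while EGFP lay within the range of CCNY-WT. The log2 difference of CCNY-shRNA from EGFP was -0.32 (standard error, SE, 0.0658, 95% interval -0.47 to -0.16, limma adjusted p = 0.0768), which did not pass. It stayed between -0.35 and -0.28 with each library left out. Against CCNY-WT it was -0.30 (limma adjusted p = 0.162), and CCNY-WT differed from EGFP by -0.02 (95% interval -0.17 to 0.14, limma adjusted p = 0.973).

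Slc1a3, the glutamate transporter that radial glia also carry, reached FPKM values of 80.8 and 84.0 with EGFP, 86.2 and 87.6 with CCNY-WT, and 63.5 and 76.1 with CCNY-shRNA. The 3 groups did not overlap, with CCNY-WT highest and CCNY-shRNA lowest, but the CCNY-shRNA replicates were further apart than EGFP and CCNY-WT. The log2 difference from EGFP was -0.24 with CCNY-shRNA (SE 0.0846, limma adjusted p = 0.183) and 0.08 with CCNY-WT (SE 0.0846, limma adjusted p = 0.898). Without CCNY-shRNA replicate 1 the first of these was -0.11, and without replicate 2 it was -0.38. Slc1a1, the related transporter of neurons, had an FPKM of 88.3 to 95.9 over the 6 libraries and differed by -0.04 with CCNY-shRNA (limma adjusted p = 0.751). As a share of the FPKM of Slc1a1, Slc1a2 and Slc1a3, the 2 astrocyte transporters made up 64.5% and 63.5% with EGFP, 66.2% and 64.2% with CCNY-WT, and 58.8% and 61.4% with CCNY-shRNA, where both values were below the other 4.

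Kcnj10, an inwardly rectifying potassium channel that buffers potassium in glia, was the lowest of the markers and had the widest range, its highest library being 1.88-fold above its lowest. The study chose Kcnj10 for follow-up on the basis of these same libraries, so its direction here is not independent evidence. Kcnj10 is also among the genes that the study reports as borne out by qRT-PCR, which was not examined here. Its FPKM was 8.46 and 5.90 with EGFP, 9.23 and 9.21 with CCNY-WT, and 4.92 and 5.35 with CCNY-shRNA. The groups did not overlap, yet the EGFP replicates differed from each other by 0.52 on the log2 scale, which is more than either group differed from EGFP. The log2 difference was 0.38 with CCNY-WT (SE 0.183, limma adjusted p = 0.757) and -0.46 with CCNY-shRNA (SE 0.183, limma adjusted p = 0.232). Without EGFP replicate 1 these became 0.64 and -0.20, and without EGFP replicate 2 they became 0.12 and -0.72. The direct difference of CCNY-shRNA from CCNY-WT, which does not use EGFP, was -0.85 (95% interval -1.27 to -0.42, limma adjusted p = 0.157), the largest among the markers in any comparison, and stayed between -0.91 and -0.78 with each library left out. Kcnj16, the channel subunit that pairs with Kcnj10, lay under an FPKM of 1, at 0.341 to 0.880, and Kcnj3 and Kcnj9, which form G-protein-gated channels of neurons, reached 35.7 to 46.7 and 21.2 to 26.3.

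To show the regulatory stretches of the 3 markers whose CCNY-shRNA libraries lay apart from EGFP, the 250 bases before the first start site listed by RefSeq (build GRCr8) are given here, 5′ to 3′.
Slc1a2 (chr3:109459859-109460108, plus strand): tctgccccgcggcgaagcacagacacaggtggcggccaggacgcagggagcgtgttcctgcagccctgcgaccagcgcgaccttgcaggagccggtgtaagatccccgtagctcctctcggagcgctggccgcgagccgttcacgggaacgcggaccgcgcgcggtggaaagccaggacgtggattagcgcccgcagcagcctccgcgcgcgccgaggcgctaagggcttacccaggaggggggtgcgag
Slc1a3 (chr2:59557809-59558058, minus strand): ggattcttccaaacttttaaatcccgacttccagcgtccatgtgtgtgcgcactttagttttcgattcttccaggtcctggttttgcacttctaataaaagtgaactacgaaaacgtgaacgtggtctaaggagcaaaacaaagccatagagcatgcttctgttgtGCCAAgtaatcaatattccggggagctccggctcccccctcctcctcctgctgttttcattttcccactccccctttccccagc
Kcnj10 (chr13:87334260-87334509, plus strand): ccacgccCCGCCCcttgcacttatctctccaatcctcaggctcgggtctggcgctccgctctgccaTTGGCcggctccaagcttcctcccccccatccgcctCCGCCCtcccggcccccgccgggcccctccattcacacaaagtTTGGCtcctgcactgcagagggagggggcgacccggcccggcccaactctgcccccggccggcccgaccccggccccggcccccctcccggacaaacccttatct
Capitals mark matches, on either strand, to the core of the site for nuclear factor I (TTGGC), the STAT pattern (TTCNNNGAA), the TATA box (TATAAA) or the GC box (GGGCGG). Kcnj10 held 2 matches to TTGGC and 2 to GGGCGG, Slc1a3 held 1 to TTGGC, and Slc1a2 held none of the 4 patterns. No match overlapped another. Over the 8 markers, 3 promoters held TTGGC, 3 held GGGCGG and 0 held TTCNNNGAA or TATAAA. Among 27457 rat promoters of this length, the shares with a match were 40.3%, 32.4%, 7.52% and 13.1%. Slc1a2 and Kcnj10 were rich in G and C (71.2% and 72.4%) and Slc1a3 was not (48.0%), against a median of 52.0% over all promoters, and no pattern was found in all 3.

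Gfap, the intermediate filament that defines mature and reactive astrocytes, reached 119.9 and 126 with EGFP, 130.1 and 129 with CCNY-WT, and 98.3 and 129 with CCNY-shRNA. CCNY-shRNA replicate 2 lay with the CCNY-WT libraries and replicate 1 lay below all others. The log2 difference from EGFP was 0.07 with CCNY-WT (95% interval -0.18 to 0.33, limma adjusted p = 0.923) and -0.13 with CCNY-shRNA (95% interval -0.38 to 0.13, limma adjusted p = 0.581). Without CCNY-shRNA replicate 1 the latter changed sign, to 0.07. Vimentin (Vim), the filament partner of Gfap, followed a similar course, at 74.3 and 81.4 with EGFP, 77.6 and 74.3 with CCNY-WT, and 58.8 and 81.9 with CCNY-shRNA. The ratio of Gfap to Vim therefore kept within 1.55 to 1.73 over the 6 libraries. Neurofilament light chain (Nefl), the neuronal counterpart, stayed at 727 to 760.

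S100b and Gja1 showed the same uneven pair of knockdown libraries. S100b, a calcium-binding protein, reached 56.7 and 59.5 with EGFP, 59.9 and 59.0 with CCNY-WT, and 51.6 and 68.9 with CCNY-shRNA, so the 2 knockdown libraries were the lowest and the highest of the 6. Its log2 difference in CCNY-shRNA was 0.04 (95% interval -0.24 to 0.31, limma adjusted p = 0.908), -0.17 without replicate 2 and 0.25 without replicate 1. Gja1, the connexin of astrocyte gap junctions, had 14.5 and 17.4 with EGFP, 17.1 and 16.4 with CCNY-WT, and 12.2 and 15.7 with CCNY-shRNA. Its values overlapped between EGFP and both other groups, and its log2 difference was -0.20 with CCNY-shRNA (95% interval -0.53 to 0.14, limma adjusted p = 0.507). The neuronal connexin Gjd2 was more abundant, at 50.8 to 62.9, and differed by -0.16 (limma adjusted p = 0.266).

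Aqp4 and Aldoc had the smallest ranges over the 6 libraries, with the highest library 1.15-fold and 1.17-fold above the lowest. Aqp4, the water channel of astrocyte endfeet, reached 16.8 and 17.0 with EGFP, 18.5 and 18.7 with CCNY-WT, and 16.2 and 18.5 with CCNY-shRNA. The CCNY-WT libraries lay above EGFP by 0.14 on the log2 scale (95% interval -0.08 to 0.36, limma adjusted p = 0.813), and the CCNY-shRNA libraries spanned the EGFP values. Aldoc, the brain form of aldolase, had 162 and 188 with EGFP, 169.7 and 174 with CCNY-WT, and 161 and 164 with CCNY-shRNA. Here EGFP replicate 2 was the high library, and CCNY-shRNA overlapped EGFP replicate 1 (log2 difference -0.11, 95% interval -0.27 to 0.06, limma adjusted p = 0.466). Aldoa, the widely expressed form, reached 924 to 1042 and held most of the aldolase signal, with Aldoc making up 13.6% to 16.5% of the pair in each library. Of 37 relatives of the markers in their gene families, 36 had values and 25 were tested, with 0 past the adjusted threshold with limma in any comparison. At an unadjusted p under 0.05, 2 were lower against EGFP in CCNY-shRNA, a share near the 9.36% of all tested genes. By mean alone 17 of the 25 were lower there and 6 higher (49.8% of all tested genes were lower), with a median of -0.11.

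Counted without a test, the markers were more often lower than higher in CCNY-shRNA. Against EGFP, 6 of 8 had a lower mean log2 FPKM, where 49.8% of all tested genes did, and 3 of 8 had both libraries below both EGFP libraries, where 24.5% did. Against CCNY-WT, 7 of 8 were lower (49.5% of all tested genes) and 6 of 8 did not overlap (21.9%). In CCNY-WT against EGFP, 6 of 8 were higher (51.3%), and Gfap, Aqp4, Kcnj10 and Slc1a3 did not overlap (20.3%). The median log2 difference of the 8 was 0.08 with CCNY-WT, -0.16 with CCNY-shRNA and -0.24 between CCNY-shRNA and CCNY-WT, beside medians over all tested genes of 0.0041, 0.00 and 0.00098.

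These shifts were unevenly carried by the 2 knockdown libraries. CCNY-shRNA replicate 1 was the lowest of the 6 libraries for 8 of the 8 markers, which held for 18.5% of all tested genes. It was below replicate 2 for each marker, with log2 ratios from -0.42 for S100b to -0.03 for Aldoc and a median of -0.23. Of all tested genes, 48.5% were below, and their median ratio was 0.0027. The markers' median relative to the EGFP mean was -0.34 in CCNY-shRNA replicate 1 and -0.05 in replicate 2, and between -0.03 and 0.07 in the other 4 libraries. Without replicate 1, the median difference from EGFP was -0.05 with 5 of 8 lower, and Slc1a2 was the only marker lower at an unadjusted p under 0.05 (S100b was higher), beside 9.26% of all tested genes. Without replicate 2 it was -0.34 with 8 of 8 lower and 5 at that threshold, beside 8.39% of all tested genes. Against CCNY-WT the median was -0.08 with 7 of 8 lower without replicate 1, and -0.37 with 8 of 8 lower without replicate 2. Without replicate 1 the differences from CCNY-WT ran from -0.78 for Kcnj10 to 0.21 for S100b. The EGFP libraries also set the size, since without EGFP replicate 1 the median in CCNY-WT was 0.02 with 4 of 8 markers higher, and without EGFP replicate 2 the median in CCNY-shRNA was -0.08. CCNY-shRNA replicate 1 was also the shallowest library, and the part of depth in this pattern was not tested.

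**Figure D3:**
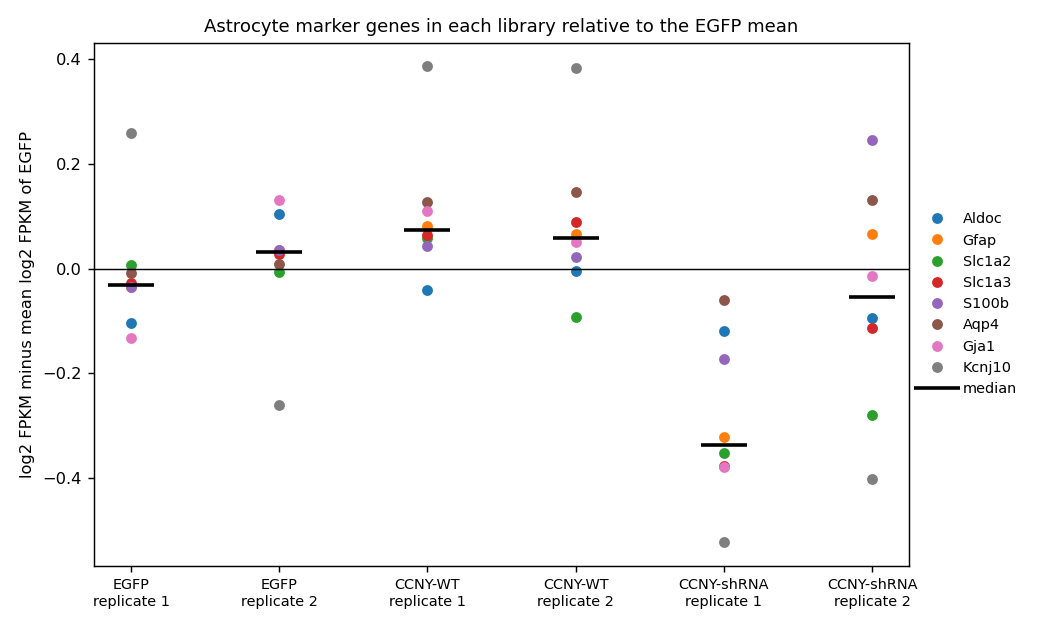
Log2 FPKM of each measured marker minus its mean in EGFP (vertical axis) in the 6 libraries, with 1 colour per gene and a bar for the median of the 8. The median sits at -0.34 in CCNY-shRNA replicate 1 and at -0.05 in CCNY-shRNA replicate 2.

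Across the 6 libraries, log2 FPKM of the markers was positively correlated in 28 of 28 pairs, with a median Pearson r of 0.63. Gfap and Gja1 were the closest pair (r = 0.93), followed by Slc1a3 with Gja1 and with Gfap (0.91 and 0.90), and Kcnj10 and S100b were the least alike (0.0053). These values rest on 6 points that share library and depth, and CCNY-shRNA replicate 1 is the low point in every pair. Of 8052 other genes with a mean FPKM of at least 5, the 5 whose pattern was most like the mean of the markers were RGD1559896, Apoe, LOC691995, Id4 and Gsta1, with r from 0.986 to 0.998, and 85 genes exceeded 0.9. Apoe, the lipid carrier secreted by astrocytes, had an FPKM of 691 and 737 with EGFP, 819 and 785 with CCNY-WT, and 529 and 663 with CCNY-shRNA. For Gfap alone the closest were Gpam, Sco1 and Cdadc1, at r from 0.986 to 0.995.

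A wider set of astrocyte genes in 6 lists was examined beside the markers. Of 71 genes named, 67 had values and 60 were tested. In CCNY-shRNA against EGFP, 1 passed the adjusted threshold (0.746% of all tested genes), 40 were lower (49.8%) and 20 higher, and the median log2 difference was -0.13. At an unadjusted p under 0.05, 14 were lower (9.36% of all tested genes) and 1 was higher (9.2%). In CCNY-WT against EGFP, 0 passed with limma (0.00982% of all tested genes), 37 had a higher mean (51.3%) and the median was 0.06. At an unadjusted p under 0.05, 1 was lower (3% of all tested genes) and 1 was higher (390 of all 10188). Between CCNY-shRNA and CCNY-WT, 0 passed, 47 were lower (49.5% of all tested genes), 12 of them at an unadjusted p under 0.05 (7.12%), and the median was -0.14. CCNY-shRNA replicate 1 was the lowest library for 29 of the 60 (18.5% of all tested genes). Without it 36 were lower than EGFP, 7 of them at an unadjusted p under 0.05, where 9.26% of all tested genes were.

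The gene that passed was Atp1b2, the glial subunit of the sodium pump and an adhesion molecule. Its FPKM was 133 and 139 with EGFP, 132 and 131 with CCNY-WT, and 105 and 97.9 with CCNY-shRNA, with both knockdown libraries below the other 4. It fell by 0.42 on the log2 scale in CCNY-shRNA (SE 0.0566, limma adjusted p = 0.0312), and in CCNY-WT it differed by -0.05 (limma adjusted p = 0.908). Unlike the markers, it was lower in CCNY-shRNA replicate 2 than in replicate 1. With any 1 of the 6 libraries left out the call was lost, at adjusted p-values from 0.0767 to 0.330, while the difference stayed between -0.47 and -0.37. In the list of channels and transporters to which it belongs, 9 of 10 tested genes had a lower mean in CCNY-shRNA than in EGFP (49.8% of all tested genes) and 3 were lower at an unadjusted p under 0.05 (9.36%). Ttyh1, another highly expressed membrane protein of that list, had 120.3 and 131 with EGFP and 115 and 101 with CCNY-shRNA (-0.22, limma adjusted p = 0.181).

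Among reactive astrocyte genes, 11 of 15 were tested, and 8 had a lower mean in CCNY-shRNA than in EGFP (49.8% of all tested genes), with a median of -0.16. At an unadjusted p under 0.05, 4 were lower, beside 9.36% of all tested genes. CCNY-shRNA replicate 1 was the lowest library for 8 of the 11 (18.5% of all tested genes), and the list's median relative to EGFP was -0.49 there and -0.10 in replicate 2. Timp1, a secreted inhibitor of matrix proteases, had 24.5 and 28.9 with EGFP, 22.8 and 24.0 with CCNY-WT, and 17.2 and 23.3 with CCNY-shRNA (-0.41, limma adjusted p = 0.194). Lcn2, a marker of inflamed astrocytes, had 5.17 and 2.70 with EGFP against 1.504 and 2.342, so that the EGFP replicates themselves were widely apart. C3, a complement gene of the reactive state, was listed at 0 in every library and Serpina3n was under 1.

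The medians of the other astrocyte lists were closer to 0, though single genes in them differed by more. Of 7 tested secreted and matrix genes, 4 had a lower mean in CCNY-shRNA than in EGFP and the median was -0.13. Among all tested genes 49.8% had a lower mean, which is also the share to set beside the counts of the lists below. Cst3, a protease inhibitor, had 817 and 865 with EGFP, 981 and 1009 with CCNY-WT, and 816 and 990 with CCNY-shRNA. Of 14 metabolic genes 10 were lower, with a median of -0.04, and Mt3, a metallothionein, had 1039 and 947 with EGFP and 882 and 1092 with CCNY-shRNA. Of 10 regulators 4 were lower, with a median of 0.01, and Nfib, a nuclear factor I gene of glial differentiation, had 35.8 and 33.4 with EGFP and 28.1 and 29.5 with CCNY-shRNA (-0.27, limma adjusted p = 0.114). Of 8 receptors 5 were lower, with a median of -0.12. Egfr, the receptor of epidermal growth factor, had 1.94 and 2.39 with EGFP, 1.46 and 1.62 with CCNY-WT, and 1.39 and 1.53 with CCNY-shRNA (-0.56, limma adjusted p = 0.205). Ednrb, an endothelin receptor of astrocytes, went the other way, at 9.61 and 10.4 with EGFP against 14.9 and 13.04 (0.48, limma adjusted p = 0.158).

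Genes that act with Slc1a2 and Slc1a3 in the cycling of glutamate and glutamine showed no call. Of 13 genes, 12 were tested, 0 passed the adjusted threshold with limma in any comparison, and 2 had a lower CCNY-shRNA than EGFP mean at an unadjusted p under 0.05 (9.36% of all tested genes). The vesicular glutamate transporter Slc17a7 had 894 and 936 with EGFP and 916 and 944 with CCNY-shRNA (0.02, limma adjusted p = 0.887). Slc38a3, a glutamine exporter of astrocytes, had 12.01 and 13.7 with EGFP, 15.7 and 17.6 with CCNY-WT, and 10.4 and 14.1 with CCNY-shRNA.

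**Figure D4:**
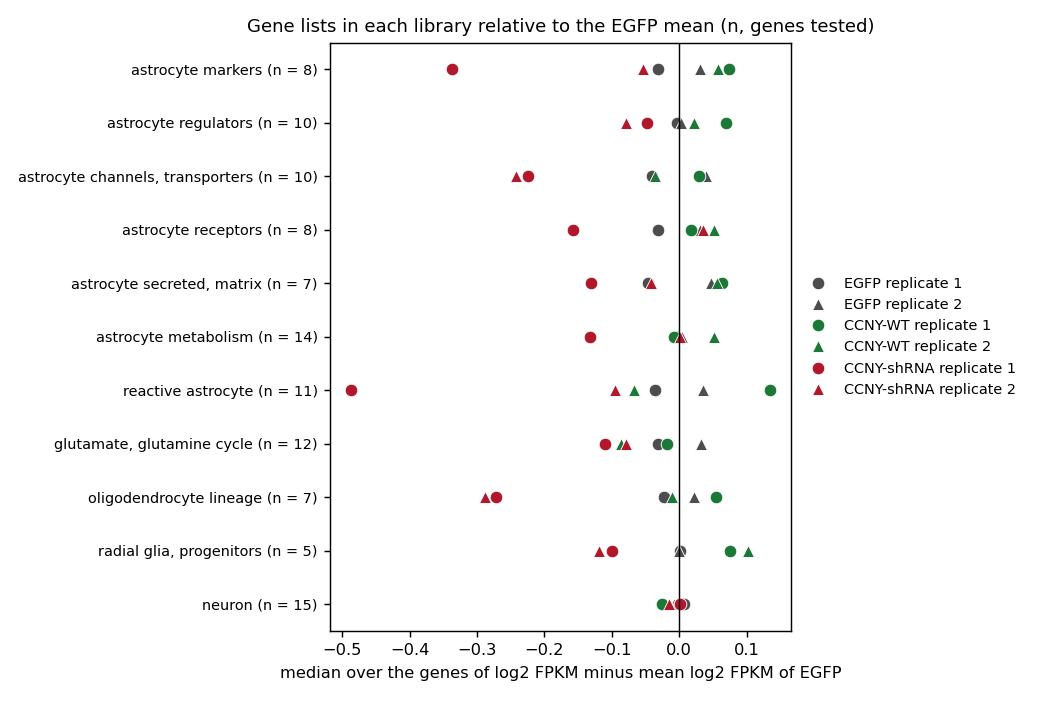
Median over the tested genes of each list of log2 FPKM minus the EGFP mean (horizontal axis), with grey for EGFP, green for CCNY-WT, red for CCNY-shRNA, circles for replicate 1 and triangles for replicate 2. CCNY-shRNA replicate 1 lies at -0.34 for the astrocyte markers, -0.49 for the reactive genes and -0.27 for the oligodendrocyte lineage. The 6 libraries of the neuron list lie close to 0.

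Markers of other cells were summed in the same libraries. All 15 neuronal genes were tested, and their sums were 7604 to 7749 with EGFP, 7541 to 7554 with CCNY-WT and 7645 to 7802 with CCNY-shRNA, and CCNY-shRNA replicate 1 was the lowest library for 2 of the 15. Gad2, a GABA-synthesising enzyme of interneurons, fell by 0.41 on the log2 scale in CCNY-shRNA against EGFP (SE 0.0494, limma adjusted p = 0.0226) and differed by -0.46 from CCNY-WT (limma adjusted p = 0.0165). Both calls were lost with any 1 library left out, at limma adjusted p-values from 0.0767 to 0.316 and from 0.0799 to 0.377, while the differences stayed between -0.42 and -0.40 and between -0.48 and -0.44. Gad1, the other GABA-synthesising enzyme of the list, differed in CCNY-shRNA by only -0.03 from EGFP (limma adjusted p = 0.813) and by -0.12 from CCNY-WT (limma adjusted p = 0.411). At an unadjusted p under 0.05 against EGFP, Gad2, Camk2a (a synaptic kinase, -0.18) and Syn1 (a synaptic vesicle protein, -0.13) were lower in CCNY-shRNA and Tubb3 (a neuronal tubulin, 0.16) was higher. So 3 of 15 were lower and 1 was higher, beside 9.36% and 9.2% of all tested genes. The sum of the 8 astrocyte markers was 543 to 580 with EGFP, 572 to 577 with CCNY-WT and 473 to 545 with CCNY-shRNA. Of the 15 oligodendrocyte lineage genes, 7 were tested, and their list summed to 57.1 to 57.6, 55.2 to 59.5 and 49.0 to 50.9 in the same order of groups. As with the astrocyte markers, most of the 7 leaned down. Against EGFP, 6 had a lower mean in CCNY-shRNA (49.8% of all tested genes), with a median log2 difference of -0.20. The list's median relative to EGFP was -0.27 in CCNY-shRNA replicate 1 and -0.29 in replicate 2. Sox10 and Enpp6, 2 defining genes of that lineage, were listed at 0 in every library. The part of these cells in the marker differences was not tested.

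Of 14 microglial genes, 13 were under an FPKM of 1 in every library, Aif1 and Cx3cr1 were listed at 0, and the sum was 0.546 to 1.65. Of 13 vascular and meningeal genes with values, 11 were under 1, the endothelial genes Cldn5 and Cdh5 were listed at 0, and the sum was 66.2 to 74.2 with EGFP, 76.3 to 76.6 with CCNY-WT and 64.6 to 67.6 with CCNY-shRNA, mostly from the matrix genes Lum and Dcn. The sum of 11 mitotic genes was 6.18 to 7.90 with EGFP, 6.45 to 6.62 with CCNY-WT and 8.46 to 8.82 with CCNY-shRNA. Radial glia and progenitor genes summed to 469.8 to 490.1, 521 to 540 and 450 to 582, almost entirely Fabp7, a lipid-binding protein that immature astrocytes also carry, at 422 and 556 in the knockdown libraries. Genes of the ependyma and choroid plexus summed to 32.8 to 40.4, 32.4 to 41.1 and 21.8 to 35.4, mostly Ttr. With limma, 0 genes of these 5 lists and of the oligodendrocyte list passed the adjusted threshold in any comparison. At an unadjusted p under 0.05 against EGFP, 1 of 7 tested oligodendrocyte genes and 1 of 4 tested mitotic genes were lower in CCNY-shRNA, beside 9.36% of all tested genes.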

How the data were processed

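RNA-seq of cultured rat hippocampal neurons was analysed from the deposited table, which gives 1 FPKM value per gene for each of 6 libraries. The authors mapped paired-end reads to the rat genome rn4 with TopHat 2 and calculated FPKM with Cufflinks, and the submitters' processing notes name Cufflinks 2.2.1, Bowtie2 2.1.0 and SAMtools 0.1.19. Neither the annotation nor a scaling between libraries is given in the sources used here. FPKM keeps no read counts, so no count model was used. FPKM was floored to 1 and log2-transformed as the authors did, and limma 3.58.1 in R 4.3.3 (lmFit, contrasts.fit, eBayes with a trend, two-sided) was fitted to the 6 libraries together, keeping the 10188 genes that reached 1 in no fewer than 2 of them. Benjamini-Hochberg adjustment ran over these 10188 genes, with a threshold of 0.05, in each of 3 comparisons. The fit was tested on simulated data with changes larger than any marker difference reported here. That test does not show whether smaller differences would be called. Intervals are limma's, at 95% and unadjusted. Relative depth was the most frequent ratio to EGFP replicate 1 among genes with an FPKM under 0.3 in both libraries. Symbols were matched directly or through RefSeq synonyms (Plpp3 as Ppap2b), and promoters were taken from RefSeq on GRCr8, a later build than rn4.

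The markers and gene lists were chosen with earlier results of these data known, so their counts are descriptions. The naming rule took each measured marker, list genes past the threshold, the 2 most abundant and the 2 most different genes of each list, family relatives with a mean FPKM of at least 1, and the genes most like the markers, and not all of these are printed. Slc38a3, Syn1, Tubb3, C3, Serpina3n, Kcnj16 and the genes named as listed at 0 were named after their values were seen, and 1 listed gene is not reported here. Alternatives changed the offset (1 or 0.1 added), filter, scaling, spread estimate, block and number of groups fitted, or left out each library. Python 3.11.15, with pandas 2.3.3, numpy 2.4.6 and matplotlib 3.10.9, served for tables and figures.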

Additional observations from a re-analysis of the deposited data

How the results depend on the processing

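With limma, 0 of the 8 astrocyte markers passed the adjusted threshold in any comparison under each of the 11 other settings or with any library left out. With libraries left out, the median difference of the markers ranged from -0.34 to -0.054 in CCNY-shRNA against EGFP. In CCNY-shRNA against CCNY-WT it ranged from -0.37 to -0.083, and CCNY-shRNA replicates 1 and 2 set the ends of both ranges. Each of these ends except -0.054 lay further from the median of the main fit than the spread between replicates (SD 0.115). The number of wider astrocyte genes past the threshold in CCNY-shRNA against EGFP (1, Atp1b2) was 0 with no filter, 0 without a trend, 0 with only the 2 groups compared in the fit (in these 3 fits Gad2 was at adjusted p = 0.0958, 0.154 and 0.139, and at 0.0839, 0.185 and 0.127 against CCNY-WT), and 0 to 0 with each library left out. The fit with no filter takes in more genes, and the fits with 2 groups or a library left out take in fewer libraries. Why the calls were lost was not tested for any of these fits. At an unadjusted p under 0.05, 1 marker was lower in CCNY-shRNA against EGFP with no filter, beside 5.73% of all genes in that fit. The other settings with no library left out gave 2 or 3 markers, beside 7.97% to 9.53% of all genes tested. Calls over all genes in CCNY-shRNA against EGFP were 76 (17 higher and 59 lower, or 21 and 42 under upper quartile scaling), against 2 with no filter, 108 with a mean FPKM of at least 1, 1 without a trend, 1 with only 2 groups and 1 to 7 with a library left out. Against CCNY-WT they were 22, against 2, 30, 1, 1 and 1 to 8, and in CCNY-WT against EGFP they were 1, against 3 with log2(FPKM + 1) or a mean FPKM of at least 1. Signs changed only with libraries left out, for values that passed in no setting. In CCNY-WT against EGFP these were Aldoc (-0.13 to 0.081), Slc1a2 (-0.092 to 0.058), S100b (-0.0024 to 0.067) and Gja1 (-0.051 to 0.21), in CCNY-shRNA against EGFP Gfap (-0.32 to 0.066), Aqp4 (-0.059 to 0.13) and S100b (-0.17 to 0.25), and in CCNY-shRNA against CCNY-WT S100b (-0.20 to 0.21). CCNY-shRNA replicate 1 remained the lowest library for 8 of 8 markers under each of the 3 scalings.

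With the replicate block, 0 markers and 1 wider astrocyte gene passed in CCNY-shRNA against EGFP, and the calls over all genes there went from 76 to 39. Differences between replicates 1 and 2 correlated over genes at 0.14 between EGFP and CCNY-WT and -0.03 between EGFP and CCNY-shRNA. Between CCNY-WT and CCNY-shRNA the correlation was 0.14. The main fit took the numbers as names only, a choice that these correlations do not settle. Depth is unknown, and with 2 libraries per group limma's standard error of a marker's difference ranged from 0.0658 to 0.183 on the log2 scale, which limits what can be called.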
